A study of Mus musculus with 18 samples.

Results

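PIP4K2B depletion was followed in differentiated C2C12 cells, a mouse myoblast line that leaves the cell cycle and forms myotubes when serum is withdrawn. Of the 18 arrays of the series, 6 hold this comparison, and all 19938 genes measured on them were described, each as the sh-PIP4K2B cells minus the control cells. The 3 control arrays and the 3 sh-PIP4K2B arrays both come from cells in which endogenous TAF3 had been knocked down with shRNA and replaced by wild-type murine TAF3 (WT-TAF3), so the difference between the groups was the second depletion, that of PIP4K2B. Both groups were then kept for 2 days in medium with 2% horse serum, although the design text of the series gives 3 days. The other arrays hold etoposide-treated cells and differentiated sh-PIP4K2B cells rescued with KK-TAF3, a TAF3 mutant that does not bind phosphoinositides. All 18 arrays entered the fit. The labels of the control arrays name no control shRNA, which the figures of the study call shX. The knockdown of TAF3 and its replacement were made with retroviruses and the knockdown of PIP4K2B with a lentivirus under drug selection. The arrays thus compare depleted with control cells, and an effect of the shRNA on other targets or of the separate selection of the lines cannot be told apart from that of PIP4K2B. The methods speak of biological triplicates, and nothing says whether the cells were transduced anew for each, so a p-value here measures the spread between the arrays.

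PIP4K2B is a lipid kinase that turns the phosphoinositide PI5P into PI(4,5)P2 and is found in the cytoplasm and the nucleus. TAF3 is a subunit of the general transcription factor TFIID whose PHD finger reads trimethylated histone H3 and can bind phosphoinositides. In myoblasts, MYOD1 and MYOG switch on the genes of the contractile apparatus by binding E-boxes, short sites of the form CANNTG, and the fused cells then build the sarcomere, in which myosin thick filaments slide along actin thin filaments anchored at the Z-disc.

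The shRNA lowered the transcript it targets. The log2 signal of Pip4k2b was 10.69, 10.69 and 10.68 in the control cells and 9.46, 9.64 and 9.55 in the sh-PIP4K2B cells, each series in the order of replicates 1, 2 and 3, as in all values below. Every depleted array lay below every control array, and the difference was -1.14 (SE 0.10, adjusted p = 1.78e-06), so that 45.3% of the control signal remained (95% limits 39.2 to 52.4). Here SE is the standard error, and the adjusted p comes from limma with the Benjamini-Hochberg correction over all 19938 genes. The other PI5P 4-kinases did not pass the threshold, which was an adjusted p under 0.05 together with a change above 1.4-fold. Pip4k2a stood at 0.18 (SE 0.07, adjusted p = 0.117) and Pip4k2c at 0.05 (SE 0.07, adjusted p = 0.706). On both every depleted array lay above every control array, but the groups did not overlap on 44.5% of all genes either. Of the type I kinases, which make PI(4,5)P2 from PI4P, Pip5k1a stood at 0.15 (SE 0.07), Pip5k1b at -0.03 (SE 0.09) and Pip5k1c at -0.05 (SE 0.07). Taf3, whose probes may also read the transcript of the rescue construct, was 8.80, 8.66 and 8.86 in the control cells and 8.71, 8.82 and 8.78 in the sh-PIP4K2B cells, and the groups overlapped, with a difference of 0.00 (SE 0.07, adjusted p = 0.989).

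The markers of skeletal muscle spanned a wide range of signal. Mean control signals of the 12 ran from 6.89 for Myh3 to 12.78 for Des, the muscle intermediate filament, with a median of 9.51 on the control and 9.69 on the depleted arrays. Myh3, Ttn and Myog, at 6.89, 7.32 and 7.70, were the dimmest of them. Markers of other cell types ran from 6.05 to 13.52 for fibroblasts, from 7.17 to 14.03 for smooth muscle, from 5.43 to 7.63 for fat cells, from 5.70 to 7.20 for macrophages, from 6.47 to 6.89 for endothelial cells and from 6.12 to 7.74 for keratinocytes. Probes differ in how bright they are, and no detection calls were used, so these levels do not say which cell types were present. RNA of whole cultures was measured, so fewer cells of a type and less RNA per cell cannot be told apart.

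In all, 211 genes passed the threshold (1.06% of those tested), of which 136 were higher (0.682%) and 75 lower (0.376%) in sh-PIP4K2B cells. Most changes were small. The median of the 136 was 1.52-fold and that of the 75 was 1.47-fold, while 13 rose and 3 fell by more than 2-fold. On 210 of the 211 genes the arrays of the groups did not overlap, but the same held for 44.5% of all genes, so separation alone is common here. The split between higher and lower genes moved with the scaling of the arrays. With each array centred on its median 318 genes were higher and 31 lower, with each array centred on the median of its brighter clusters 97 were higher and 158 lower, and with the array medians as a covariate 58 were higher and 86 lower. Under all 6 normalization alternatives 75 of the 211 genes passed in the same direction (47 higher and 28 lower), and 73 of these also passed with any 1 of the 6 arrays left out (46 higher and 27 lower). The clone Gm5662 and the small RNA Snord87, at 1.07 and 1.02, were among the 13 and not in this set. The plot by array omits clones and genes of small RNAs, and of the 14 largest rises and 14 largest falls drawn there all but Slc6a2 and Prp2, both among the falls, came from the set.

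**Figure D1:**
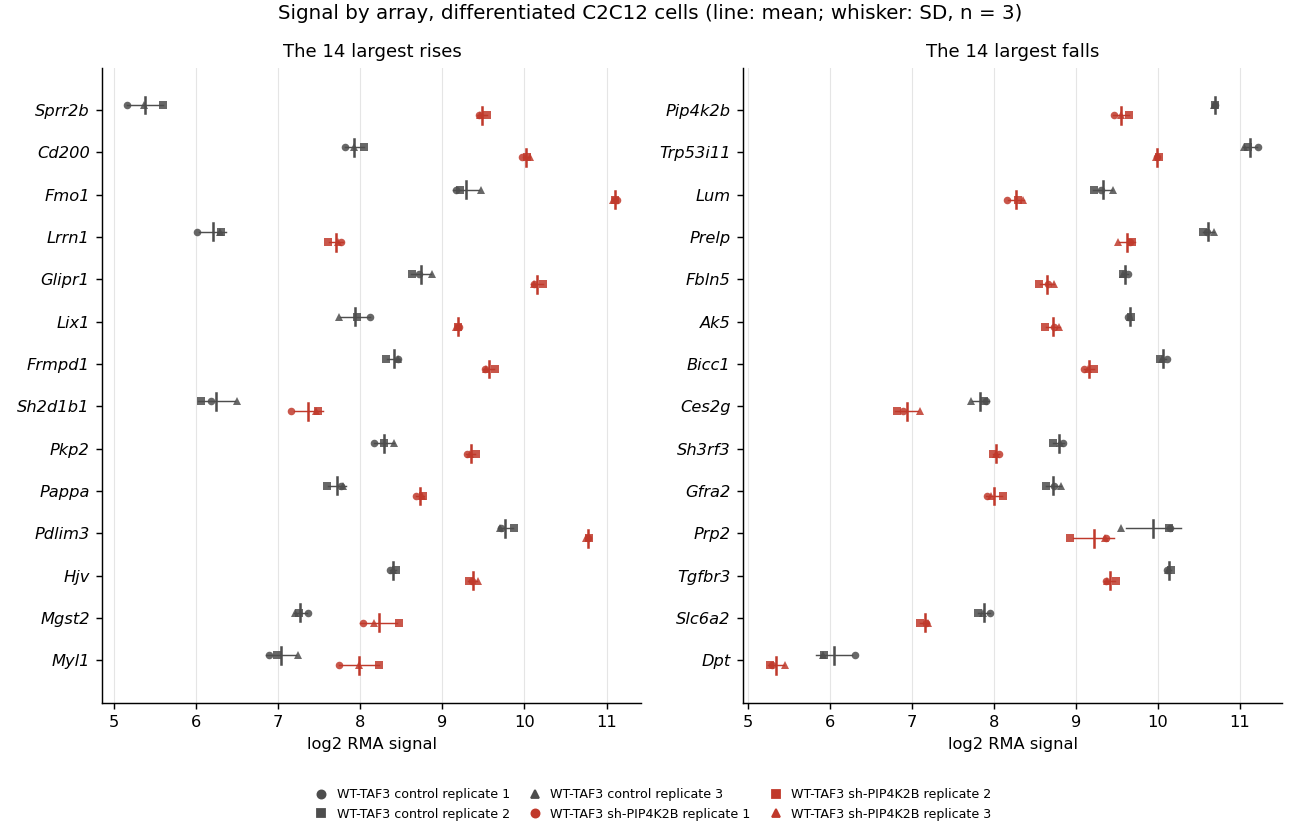
Log2 RMA signal (x axis) of the 14 genes with the largest rises (left) and the 14 with the largest falls (right) past the threshold, clone names and small RNA genes left out, 1 point per array, with the mean as a line and the SD as a whisker (n = 3 per group). Control arrays are grey and sh-PIP4K2B arrays red; Sprr2b moved by 4.11 and Pip4k2b by -1.14 on the log2 scale, and the arrays of the groups are apart on every gene drawn.

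The arrays of sh-PIP4K2B cells had lower medians, and the shift was not uniform over the range of signal. The median of all 35556 transcript clusters was 7.41, 7.40 and 7.36 on the control arrays and 7.33, 7.25 and 7.30 on the depleted arrays. No depleted array reached the lowest control array (difference -0.10, exact permutation test, two-sided, p = 0.1, the smallest that 20 divisions of 3 against 3 arrays allow). Above the middle of the range the order turned. The 75th percentile was 9.61, 9.61 and 9.65 on the control arrays and 9.66, 9.72 and 9.68 on the depleted arrays (difference 0.07, exact permutation test, p = 0.1), and the 5th percentile was higher on the depleted arrays as well, at 3.89 to 3.97 against 3.83 to 3.86. The 25th to 60th percentiles were thus lower on the depleted arrays, and those from the 75th up and from the 10th down were higher. The median change over all genes, -0.02 as deposited, became 0.07 with arrays centred on their medians and -0.09 with arrays centred on their brighter clusters. The medians of several gene lists near 0 had no fixed sign. Under at least 1 of the 6 normalization alternatives the sign turned for the lists of cytosolic ribosomal proteins, olfactory receptors, epidermal genes, neuronal genes, reserve cell genes, Hox genes, myogenic transcription factors, PHD finger genes and proteasome subunits, and it stayed for the other single lists whose medians are given.

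The same pattern was seen gene by gene. When the genes were ordered by their mean signal over all 18 arrays and cut into 10 equal signal groups, the median change was -0.03 in the dimmest group, fell to -0.18 in the fourth (log2 signals of 6.74 to 7.27) and stood between 0.04 and 0.09 in the 5 brightest. In the fourth group 11.7% of the genes lay above 0, against 72.5% in the seventh and 44.7% of all genes. The deviation varied between replicates too. In the fourth group the depleted arrays deviated from the mean of the 6 arrays by -0.01, -0.17 and -0.07 and the control arrays by 0.13, 0.11 and 0.02. Of the pairs with 1 array from each group, control replicate 3 and depleted replicate 1 lay closest together. Of the 136 higher genes 97 came from the 5 brightest groups, and so did 43 of the 75 lower genes. After subtraction of the median of its own group 108 of the 136 and 53 of the 75 still differed by more than 1.4-fold. Among KK-TAF3 sh-PIP4K2B cells against the same 3 control arrays the median of the fourth group was -0.17, and in the etoposide-treated pair, which shares no array with this one, it was 0.10. What set the deviation was not tested.

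**Figure D2:**
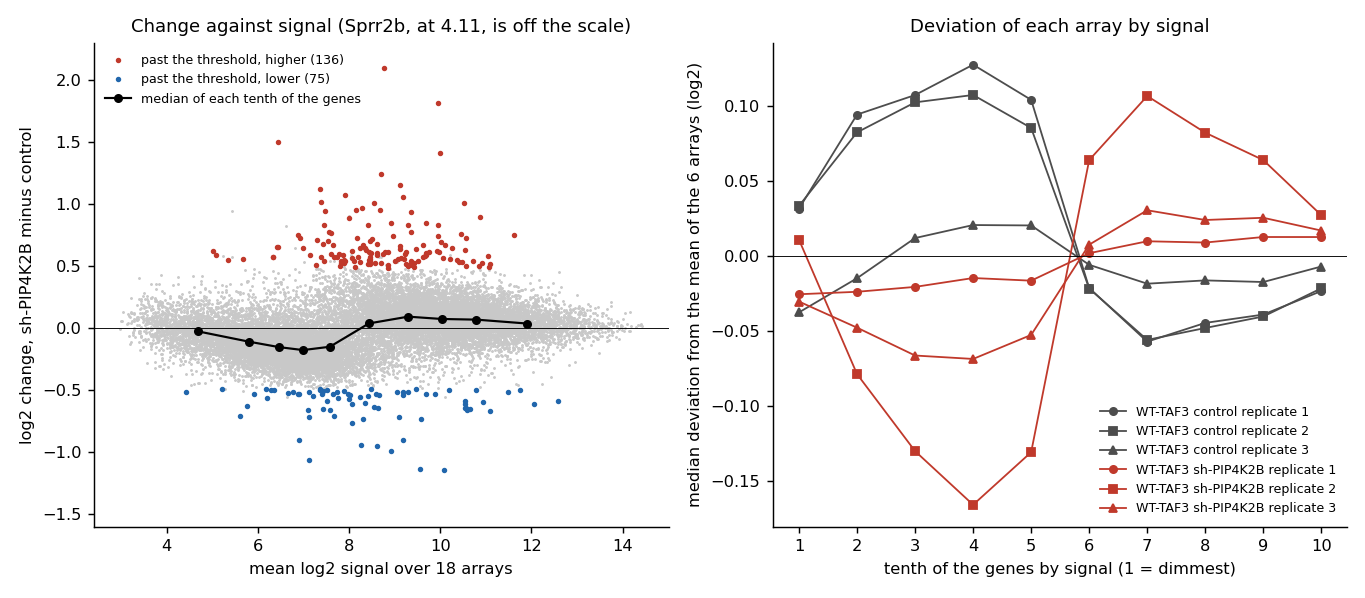
Left, the log2 change of each of the 19938 genes (y axis) against its mean log2 signal over 18 arrays (x axis), with the 136 higher genes in red, the 75 lower genes in blue and the median of each of the 10 signal groups in black. Right, the median deviation of each array from the mean of the 6 arrays (y axis, log2) by signal group (x axis, 1 is the dimmest); in the fourth group depleted replicate 2 lies at -0.17 and control replicate 1 at 0.13.

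The largest rise by far was that of Sprr2b, which belongs to the small proline-rich family, proteins that stiffen the outer layer of skin, and is not a muscle gene. Its log2 signal was 5.16, 5.595 and 5.37 in the control cells and 9.45, 9.55 and 9.46 in the sh-PIP4K2B cells. The control arrays lay in the range of dim genes, and the depleted arrays were bright and close together. The rise was 4.11 (SE 0.13, adjusted p = 7.52e-13), or 17.2-fold on these signals. Whether the probes were above background in the control cells was not determined, so the fold may be too small. Other members of the family differed by less. The pseudogene Sprr2j-ps stood at 0.65 (SE 0.12, adjusted p = 0.00312) and Sprr2i at 0.56 (SE 0.11, adjusted p = 0.00965), both past the threshold, and since these copies are nearly identical to Sprr2b their probes may share its transcript. Sprr2d stood at 0.29 (SE 0.12), Sprr2e at -0.03 (SE 0.12), Sprr2f at 0.10 (SE 0.10), Sprr2h at -0.40 (SE 0.10) and Sprr1a, already among the brightest genes in control cells at 13.87, at -0.16 (SE 0.07). Of 43 small proline-rich and epidermal genes 4 were higher (9.3%, against 0.682% of all genes, and with the shared probes just named) and none lower, the fourth being the basal keratin Krt14 at 0.56 (SE 0.08, adjusted p = 7.03e-04), with a median of -0.09 for the group. Krt5, its partner, stood at -0.32 (SE 0.13). The 250 bases before the start of Sprr2b are shown because this gene stands so far from the rest. They come from RefSeq (GRCm38.p6, chr3:92316455-92316704, plus strand), and the capitals mark the single TATAAA, which begins 29 bases before the start and is found on either strand in 11.5% of the promoter windows of all measured genes (300 bases each, 250 before and 50 after the start):
Sprr2b: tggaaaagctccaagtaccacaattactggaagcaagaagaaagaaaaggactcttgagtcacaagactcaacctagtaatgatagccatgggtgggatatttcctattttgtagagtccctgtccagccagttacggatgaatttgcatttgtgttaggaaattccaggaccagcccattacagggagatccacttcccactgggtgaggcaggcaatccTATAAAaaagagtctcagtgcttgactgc

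Several membrane and secreted proteins followed Sprr2b. Cd200, a surface glycoprotein that restrains myeloid cells, had signals of 7.81, 8.04 and 7.93 in the control cells and 9.98, 10.03 and 10.07 in the sh-PIP4K2B cells, a rise of 2.10 (SE 0.09, adjusted p = 2.71e-11) or 4.28-fold. Fmo1, a flavin monooxygenase that oxidises drugs and other foreign compounds, was 9.17, 9.22 and 9.47 in the control cells and 11.13, 11.10 and 11.08 in the sh-PIP4K2B cells, a difference of 1.82 (SE 0.09, adjusted p = 4.59e-10). No depleted array of either gene came near a control array, and the closest arrays were 1.94 and 1.61 apart. Their relatives did not pass. Fmo2 stood at -0.27 (SE 0.11), Fmo4 at -0.24 (SE 0.12) and Fmo5 at 0.25 (SE 0.07), and the receptor for CD200, Cd200r1, was dim at 4.95 in control cells and stood at 0.13 (SE 0.09). Lrrn1, a leucine-rich repeat membrane protein of neural and early embryonic cells, was 6.02, 6.31 and 6.29 in the control cells and 7.76, 7.61 and 7.73 in the sh-PIP4K2B cells, a difference of 1.498 (SE 0.08, adjusted p = 1.96e-09), and its relatives Lrrn2, Lrrn3 and Lrrn4 stood at -0.29, -0.01 and -0.34. Glipr1, of the CAP superfamily, was 8.72, 8.63 and 8.88 in the control cells and 10.11, 10.23 and 10.11 in the sh-PIP4K2B cells, a difference of 1.41 (SE 0.14, adjusted p = 7.97e-06), while Glipr2 stood at -0.02 (SE 0.07).

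Next came Lix1 at 1.25 (SE 0.10), Frmpd1 at 1.16 (SE 0.14), Sh2d1b1, an SH2 adaptor of killer cell receptors, at 1.12 (SE 0.14), and Pkp2, a plakophilin of desmosomes, at 1.06 (SE 0.09). Pappa, the protease that releases insulin-like growth factors from their binding proteins, was 7.77, 7.60 and 7.79 in the control cells and 8.68, 8.76 and 8.75 in the sh-PIP4K2B cells, and rose by 1.01 (SE 0.09, adjusted p = 3.82e-06). Hjv, the hemojuvelin co-receptor for bone morphogenetic proteins that skeletal muscle makes, was 8.36, 8.43 and 8.40 in the control cells and 9.36, 9.32 and 9.43 in the sh-PIP4K2B cells, a difference of 0.97 (SE 0.09, adjusted p = 4.06e-06). The groups were apart by 0.89 and 0.89 at the closest arrays. C1qtnf3, a secreted relative of adiponectin, was 9.55, 9.62 and 9.53 in the control cells and 10.44, 10.54 and 10.51 in the sh-PIP4K2B cells, a difference of 0.93 (SE 0.09, adjusted p = 7.78e-06), and Npr3, the clearance receptor of natriuretic peptides, stood at 0.85 (SE 0.08, adjusted p = 3.82e-06).

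Of the muscle program 14 genes rose, and they were a minority of it. A set of 8 lists was drawn up for thin and thick filaments, the Z-disc and costamere, calcium release and excitation, the acetylcholine receptor and synapse, myogenic transcription factors, fusion and metabolism. Of their 194 measured genes 14 were higher (7.22%, against 0.682% of all genes) and 1 was lower, while the median change of the 194 was 0.01, which turned to -0.06 with the brighter clusters as the centre. By adjusted p alone, without the fold limit, 32 of the 194 were higher and 8 lower, against 640 and 585 of all 19938 genes. The 14 were 26 with each array centred on its median and 11 with the array medians as a covariate or with the brighter clusters as the centre, and between 13 and 18 were higher with 1 array left out.

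**Figure D3:**
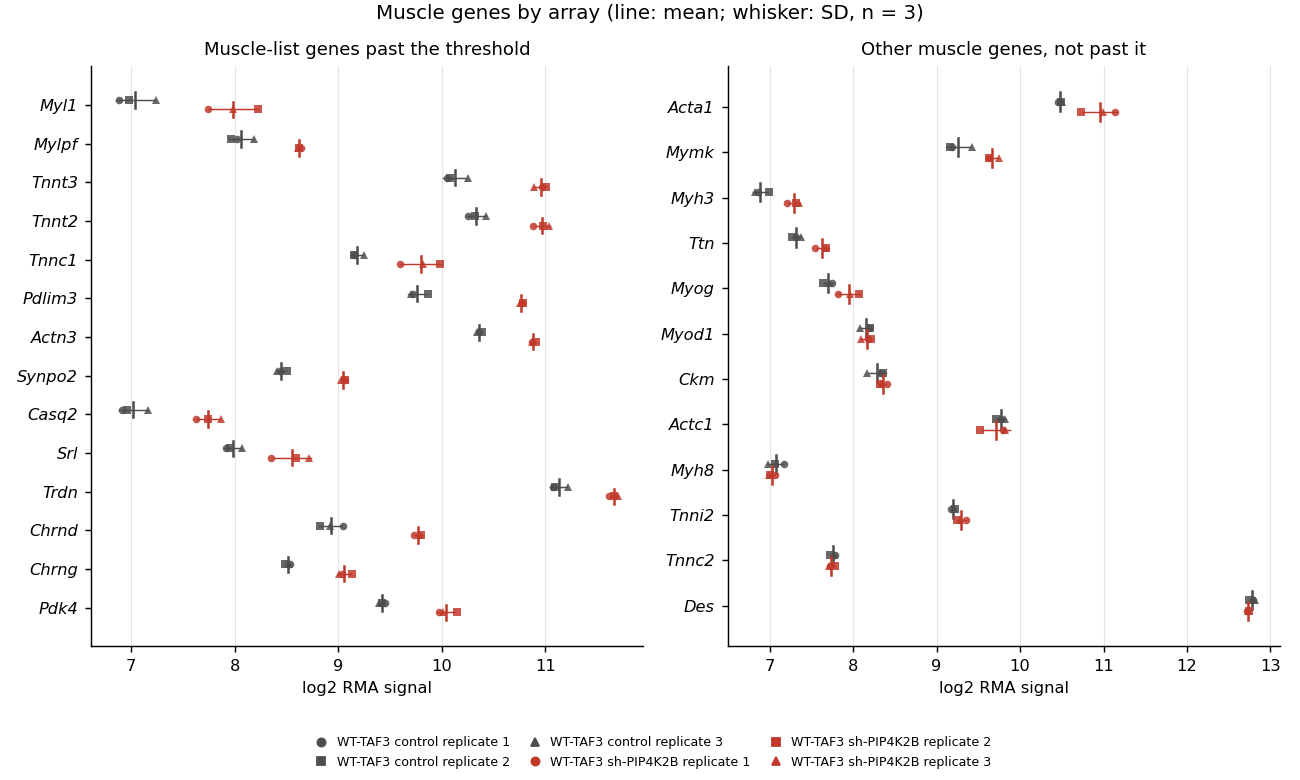
Log2 RMA signal (x axis) of 14 genes of the muscle lists past the threshold (left) and of 12 other muscle genes (right), 1 point per array, with the mean as a line and the SD as a whisker (n = 3 per group; control grey, sh-PIP4K2B red). On the left the arrays of the groups are apart on every gene, with Myl1 at 0.95 and Actn3 at 0.52 on the log2 scale; on the right Acta1 stood at 0.47 and Ckm at 0.07, and neither passed.

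Among the filament proteins, the fast light chain Myl1 moved most. Its signal was 6.89, 6.98 and 7.24 in the control cells and 7.74, 8.22 and 7.99 in the sh-PIP4K2B cells, a rise of 0.95 (SE 0.13, adjusted p = 3.43e-04), or 1.93-fold. Mylpf, the phosphorylatable light chain of fast fibres, was 8.02, 7.96 and 8.19 in the control cells and 8.64, 8.62 and 8.61 in the sh-PIP4K2B cells, a difference of 0.56 (SE 0.07, adjusted p = 1.16e-04). Fast troponin T, Tnnt3, was 10.05, 10.08 and 10.25 in the control cells and 10.97, 11.01 and 10.89 in the sh-PIP4K2B cells, a difference of 0.83 (SE 0.07, adjusted p = 1.42e-06). All depleted arrays lay above all control arrays on the 3 genes, by 0.50, 0.42 and 0.64 at the closest. Cardiac troponin T, Tnnt2, which embryonic muscle also makes, stood at 0.63 (SE 0.09, adjusted p = 3.37e-04) and the slow and cardiac troponin C, Tnnc1, at 0.62 (SE 0.10, adjusted p = 0.00205). Other members of the same families differed by less. Tnni2 stood at 0.09 (SE 0.09), Tnnc2 at -0.02 (SE 0.10), Tnnt1 at 0.45 (SE 0.09, adjusted p = 0.00781), Myl4 at 0.44 (SE 0.08, adjusted p = 0.00427) and skeletal actin Acta1 at 0.47 (SE 0.10, adjusted p = 0.0138), the last 3 past the adjusted p but under 1.4-fold. The embryonic heavy chain Myh3 was dim in both groups, at 6.85, 6.99 and 6.82 in the control cells and 7.21, 7.31 and 7.35 in the sh-PIP4K2B cells, a difference of 0.40 (SE 0.09, adjusted p = 0.0152), while Myh8 stood at -0.05 (SE 0.08) and Myh7 at -0.16 (SE 0.08).

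At the Z-disc Pdlim3, a PDZ and LIM partner of alpha-actinin, was 9.72, 9.87 and 9.71 in the control cells and 10.77, 10.78 and 10.75 in the sh-PIP4K2B cells, so that the groups were apart by 0.89 at the closest arrays, and the rise was 1.01 (SE 0.07, adjusted p = 2.12e-07). The fast alpha-actinin Actn3 stood at 0.52 (SE 0.08, adjusted p = 6.63e-04) and Synpo2, an actin bundler, at 0.60 (SE 0.11, adjusted p = 0.00422), while Actn2, the relative of Actn3, stood at -0.16 (SE 0.10). For calcium release, the calcium buffer Casq2 was 6.91, 6.96 and 7.17 in the control cells and 7.63, 7.74 and 7.86 in the sh-PIP4K2B cells, a difference of 0.73 (SE 0.08, adjusted p = 3.52e-05). Sarcalumenin (Srl), which also holds calcium in the reticulum, stood at 0.57 (SE 0.08, adjusted p = 5.06e-04) and triadin (Trdn) at 0.53 (SE 0.11, adjusted p = 0.00781). The value of Trdn is that of its brightest transcript cluster, and its 18 other clusters ran from 0.29 to 1.41. Of the receptor for acetylcholine, the delta subunit Chrnd was 9.04, 8.82 and 8.92 in the control cells and 9.73, 9.80 and 9.79 in the sh-PIP4K2B cells, a difference of 0.84 (SE 0.08, adjusted p = 7.97e-06). The embryonic gamma subunit Chrng stood at 0.54 (SE 0.09, adjusted p = 0.00134), while the alpha subunit Chrna1, with 12.12 in control cells far brighter, stood at 0.33 (SE 0.06, adjusted p = 0.00354), under 1.4-fold. Pdk4, the kinase that closes pyruvate dehydrogenase, was 9.45, 9.42 and 9.39 in the control cells and 9.97, 10.14 and 10.01 in the sh-PIP4K2B cells, a difference of 0.62 (SE 0.08, adjusted p = 8.11e-05). The calls of Synpo2, Srl, Trdn, Actn3 and Chrng were lost with the array medians as a covariate, and those of Trdn, Actn3 and Chrng also with arrays centred within signal groups.

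The regulators above these genes stayed under the threshold. None of the 21 genes in the list of myogenic transcription factors, which also holds Rb1 and the fusion gene Mymx, passed in limma. Of them 8 (38.1%) were at an unadjusted p under 0.05, against 27.8% of all genes, and the median was 0.02. Myod1 was 8.19, 8.20 and 8.08 in the control cells and 8.18, 8.21 and 8.09 in the sh-PIP4K2B cells, with overlapping groups and a difference of 0.00 (SE 0.08, adjusted p = 0.973). Myog was 7.74, 7.64 and 7.72 in the control cells and 7.82, 8.07 and 7.96 in the sh-PIP4K2B cells, a difference of 0.25 (SE 0.09, adjusted p = 0.0971), with every depleted array above every control array but a change of 1.19-fold. The fusion protein Mymk stood at 0.41 (SE 0.11, adjusted p = 0.0324) and Ckm, muscle creatine kinase, at 0.07 (SE 0.08). Of 29 fusion genes 1 passed (3.45%, against 1.06% of all genes), Kirrel3, an adhesion protein, at -0.52 (SE 0.09, adjusted p = 0.00282).

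Promoter windows from RefSeq (GRCm38.p6) were at hand for 9 of the 14 muscle genes that rose, and 5 of their 10 windows held CAGCTG, the E-box core that MYOD1 and MYOG favour, against 16.3% of the 19116 windows of all measured genes. All 10 windows held a CANNTG, of which CAGCTG is a form, against 68.3%. Over all 136 higher genes 21.8% of 110 windows held CAGCTG, and over the 75 lower genes 9.43% of 53. A match is a description of the letters only. Muscle genes that did not rise were not counted apart, so whether muscle genes in general share this excess was not tested. For the 5 windows of risen muscle genes that held CAGCTG, the 250 bases before the start are shown, 5′ to 3′. CAGCTG, which reads the same on both strands, is in capitals, so that the number and place of the E-boxes can be compared. Myl1 lies at chr1:66945057-66945306, minus strand (a start within the annotated gene), Mylpf at chr7:127211358-127211607, plus strand, Tnnt2 at chr1:135836084-135836333, plus strand (1 of 2 windows of the gene), Pdlim3 at chr8:45885237-45885486, plus strand and Chrng at chr1:87205561-87205810, plus strand. The first capitals begin 224, 51, 223, 139 and 155 bases before the start, in this order, and the second ones of Tnnt2 and Chrng at 157 and 132:
Myl1: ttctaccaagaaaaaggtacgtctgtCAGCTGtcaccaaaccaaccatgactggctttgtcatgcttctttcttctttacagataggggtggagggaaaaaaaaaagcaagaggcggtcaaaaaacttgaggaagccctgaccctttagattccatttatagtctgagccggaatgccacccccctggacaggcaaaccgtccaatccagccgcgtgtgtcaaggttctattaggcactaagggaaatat
Mylpf: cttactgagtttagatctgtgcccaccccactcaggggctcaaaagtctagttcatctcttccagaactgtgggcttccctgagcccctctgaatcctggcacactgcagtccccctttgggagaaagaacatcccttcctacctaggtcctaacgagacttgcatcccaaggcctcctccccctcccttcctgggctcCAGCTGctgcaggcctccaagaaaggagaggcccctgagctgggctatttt
Tnnt2: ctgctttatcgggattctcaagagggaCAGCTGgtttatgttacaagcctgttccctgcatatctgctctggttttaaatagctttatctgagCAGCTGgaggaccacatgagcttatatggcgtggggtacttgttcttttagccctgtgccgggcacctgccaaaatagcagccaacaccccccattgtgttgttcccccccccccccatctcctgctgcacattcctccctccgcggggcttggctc
Pdlim3: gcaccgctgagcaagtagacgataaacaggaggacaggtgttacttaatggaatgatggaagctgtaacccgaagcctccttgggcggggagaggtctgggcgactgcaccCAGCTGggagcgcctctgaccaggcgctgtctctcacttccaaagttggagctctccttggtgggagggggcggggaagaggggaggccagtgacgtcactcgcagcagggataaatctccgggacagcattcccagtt
Chrng: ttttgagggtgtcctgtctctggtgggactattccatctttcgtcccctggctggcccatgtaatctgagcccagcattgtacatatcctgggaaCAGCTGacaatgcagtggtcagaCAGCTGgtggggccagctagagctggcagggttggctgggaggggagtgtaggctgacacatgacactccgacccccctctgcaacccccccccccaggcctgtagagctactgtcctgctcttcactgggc

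Genes of the extracellular matrix were among the larger falls. Lum, the small leucine-rich proteoglycan lumican, was 9.30, 9.22 and 9.45 in the control cells and 8.16, 8.29 and 8.35 in the sh-PIP4K2B cells, a fall to 48% of the control signal, a difference of -1.06 (SE 0.09, adjusted p = 8.37e-07). Prelp, another of that family, was 10.60, 10.55 and 10.68 in the control cells and 9.66, 9.68 and 9.51 in the sh-PIP4K2B cells, a difference of -0.99 (SE 0.10, adjusted p = 1.10e-05). Fbln5, which helps to assemble elastic fibres, was 9.64, 9.57 and 9.57 in the control cells and 8.66, 8.55 and 8.73 in the sh-PIP4K2B cells, a difference of -0.95 (SE 0.07, adjusted p = 1.86e-07). On these 3 genes the highest depleted array lay 0.87, 0.87 and 0.84 below the lowest control array. Versican (Vcan) stood at -0.65 (SE 0.16, adjusted p = 0.028), a call lost with any of the arrays left out. Of 32 proteoglycan genes 3 were lower (9.38%, against 0.376% of all genes) and none higher, with a median of -0.17, which became -0.08 with each array centred on its median and -0.08 after subtraction of the median of each gene's signal group. Decorin (Dcn) stood at -0.40 (SE 0.07, adjusted p = 0.00289) and fibromodulin (Fmod) at -0.45 (SE 0.09, adjusted p = 0.00874), both under 1.4-fold, while biglycan (Bgn), osteoglycin (Ogn) and asporin (Aspn) stood at -0.02 (SE 0.06), 0.13 (SE 0.09) and -0.19 (SE 0.17). Of 46 genes of fibrillar collagens and elastic fibres, Fbln5 alone passed (2.17%, against 1.06% of all genes, with a median of -0.17). None of 23 basement membrane genes did in limma (7 at an unadjusted p under 0.05, or 30.4% against 27.8% of all genes). The gelatinase Mmp2 was bright and lower, at 12.88, 12.76 and 12.79 in the control cells and 12.24, 12.20 and 12.15 in the sh-PIP4K2B cells, a difference of -0.61 (SE 0.09, adjusted p = 5.06e-04), and the matrix proteins Spon2, Fndc1 and dermatopontin (Dpt) stood at -0.59 (SE 0.06), -0.65 (SE 0.07) and -0.71 (SE 0.10). Has2, the hyaluronan synthase, went the other way, at 9.80, 9.78 and 9.90 in the control cells and 10.48, 10.70 and 10.56 in the sh-PIP4K2B cells, a difference of 0.76 (SE 0.10, adjusted p = 1.25e-04), as did the heparan sulfate enzyme Ndst4 at 0.61 (SE 0.11), while the chondroitin sulfotransferase Chst15 stood at -0.50 (SE 0.08).

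Of the 7 fibroblast markers 2 passed the threshold, Lum and Dpt, both lower, as were 0.376% of all genes. Changes ran from -1.06 (Lum) to 0.02 (Col1a1), with Pdgfra at -0.33 (SE 0.14, adjusted p = 0.128), Thy1 at -0.26 (SE 0.14, adjusted p = 0.232) and Pi16 at -0.18 (SE 0.07, adjusted p = 0.115). In a longer list of 18 fibroblast genes the same 2 alone passed (11.1%, against 0.376% of all genes). The median of the 18 was -0.19, which became -0.10 with each array centred on its median and -0.11 after subtraction of the signal-group medians. Lum, Dpt and Dcn are at once matrix genes and fibroblast markers, and the part of a change in cell types in these falls was not tested. Of 23 genes of reserve cells, the mononuclear cells that stay undifferentiated in such cultures, 2 were lower (8.7%, against 0.376% of all genes), while 10 lay above 0 and the median was -0.02. Cd34 was 11.41, 11.40 and 11.43 in the control cells and 10.78, 10.70 and 10.82 in the sh-PIP4K2B cells, a difference of -0.64 (SE 0.07, adjusted p = 2.70e-05) and the co-receptor Tgfbr3 stood at -0.72 (SE 0.11, adjusted p = 6.60e-04), while Pax7 stood at -0.26 (SE 0.09, adjusted p = 0.0785).

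Several secreted growth factors and antagonists fell. Of 41 ligands, receptors and antagonists of the BMP and TGF-beta families 3 were lower (7.32%, against 0.376% of all genes) and none higher. Bmp4 was 9.15, 9.12 and 9.28 in the control cells and 8.47, 8.62 and 8.65 in the sh-PIP4K2B cells, a difference of -0.60 (SE 0.08, adjusted p = 1.16e-04), and Grem1, the BMP antagonist gremlin, was 10.83, 10.81 and 10.68 in the control cells and 10.13, 10.17 and 10.09 in the sh-PIP4K2B cells, a difference of -0.65 (SE 0.08, adjusted p = 7.19e-05). The third was Tgfbr3, while the signalling receptors Tgfbr1 and Tgfbr2 stood at 0.29 (SE 0.08) and 0.11 (SE 0.11). Ccn2 (connective tissue growth factor), a target of TGF-beta and YAP, was 12.14, 12.10 and 12.18 in the control cells and 11.55, 11.43 and 11.43 in the sh-PIP4K2B cells, a difference of -0.67 (SE 0.08, adjusted p = 3.45e-05). It was the 1 of 25 immediate early genes past the threshold (4%, against 1.06% of all genes), and with Myl9, a regulatory light chain of smooth and non-muscle myosin at 0.75 (SE 0.07, adjusted p = 3.19e-06), the 1 lower and the 1 higher of 24 smooth muscle and YAP genes (8.33% together). Of 62 Wnt genes 4.84% passed, against 1.06% of all genes. The antagonists Dkk3 and Sfrp2 were lower, at -0.54 (SE 0.11) and -0.53 (SE 0.10), and the ligand Wnt7b was higher, at 8.61, 8.62 and 8.55 in the control cells and 9.33, 9.41 and 9.38 in the sh-PIP4K2B cells, a difference of 0.78 (SE 0.09, adjusted p = 6.03e-05). With each array centred on its median only Wnt7b still passed, and so it was with arrays centred within signal groups, cyclic loess and quantile normalization. With the array medians as a covariate or the brighter clusters as the centre, 2 Wnt genes were lower.

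In the insulin-like growth factor axis, where Pappa rose, its substrate Igfbp4 fell. Igfbp4 was 9.53, 9.54 and 9.60 in the control cells and 8.87, 8.96 and 8.95 in the sh-PIP4K2B cells, a difference of -0.63 (SE 0.07, adjusted p = 3.52e-05). No other of the 20 genes passed, so that 10% of the list did, against 1.06% of all genes. Igf1 stood at -0.35 (SE 0.06, adjusted p = 0.00354), Igf2 at 0.27 (SE 0.11) and Igfbp5, very bright in both groups, at 0.45 (SE 0.14, adjusted p = 0.061). Gfra2, the neurturin receptor, stood at -0.73 (SE 0.10, adjusted p = 3.77e-04), and the guidance factors Slit2 and Sema6d at -0.61 (SE 0.14) and -0.53 (SE 0.09). Of the ligands of the PDGF receptors, Pdgfb was 8.98, 9.11 and 9.001 in the control cells and 9.54, 9.51 and 9.43 in the sh-PIP4K2B cells, a difference of 0.47 (SE 0.09, adjusted p = 0.00699), short of 1.4-fold, Pdgfd stood at -0.41 (SE 0.10, adjusted p = 0.0272) and Pdgfa at 0.06 (SE 0.06).

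**Figure D4:**
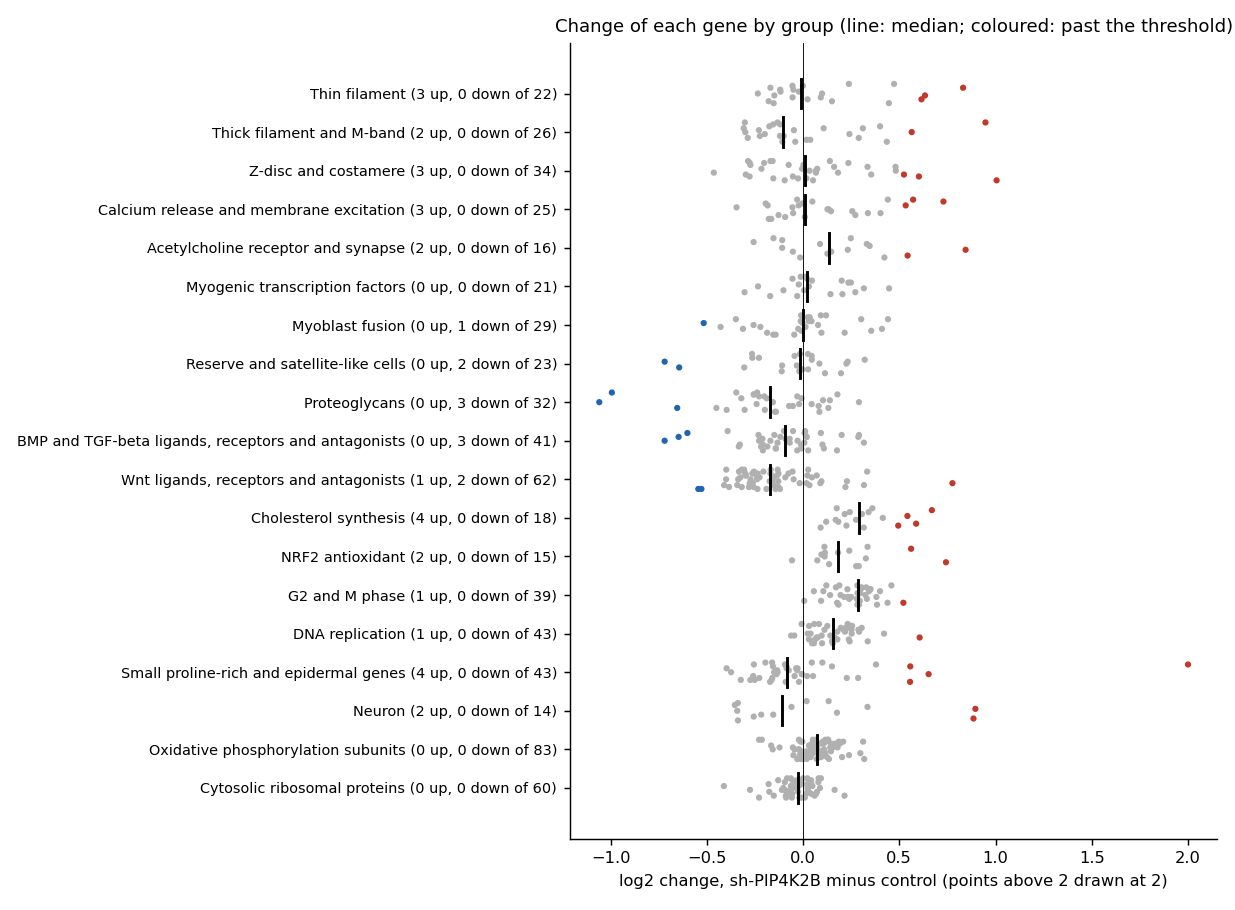
Log2 change of every measured gene (points, x axis) in 19 of the gene groups (y axis), with the group median as a black line and genes past the threshold in red (higher) or blue (lower); Sprr2b, at 4.11, is drawn at 2. All 18 cholesterol synthesis genes and all 39 genes of the G2 and M phases lie above 0, while 3 of 32 proteoglycan genes and 4 of 18 cholesterol genes passed.

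Other genes that fell stood outside these groups. Trp53i11, named for its induction by p53, was 11.22, 11.10 and 11.05 in the control cells and 9.99, 10.01 and 9.97 in the sh-PIP4K2B cells, a difference of -1.13 (SE 0.08, adjusted p = 1.86e-07), close to that of Pip4k2b in size. The adenylate kinase Ak5 stood at -0.94 (SE 0.09, adjusted p = 3.19e-06), the RNA-binding protein Bicc1 at -0.90 (SE 0.11, adjusted p = 1.11e-04), the carboxylesterases Ces2g and Ces1a at -0.90 (SE 0.10) and -0.66 (SE 0.09), and Sh3rf3 at -0.76 (SE 0.07). Socs2, a brake on growth hormone signalling, was 10.07, 10.08 and 10.16 in the control cells and 9.39, 9.56 and 9.37 in the sh-PIP4K2B cells, a difference of -0.66 (SE 0.07, adjusted p = 1.99e-05). This is the value of its brightest transcript cluster, and its other cluster stood at -0.24. Hmga2, a chromatin protein of embryonic and proliferating cells, was 10.89, 10.83 and 10.84 in the control cells and 10.22, 10.27 and 10.28 in the sh-PIP4K2B cells, a difference of -0.60 (SE 0.06, adjusted p = 7.78e-06). The closest arrays of the groups were 0.50 and 0.56 apart. The repressor Bach2 stood at -0.71 (SE 0.09), and the prostaglandin synthase and co-chaperone Ptges3, among the brightest of these genes, at -0.58 (SE 0.07, adjusted p = 1.16e-04). Il33, a nuclear cytokine, was 7.40, 7.59 and 7.39 in the control cells and 6.94, 6.73 and 6.95 in the sh-PIP4K2B cells, a difference of -0.59 (SE 0.10, adjusted p = 0.00187); of 160 cytokines, chemokines and receptors it was the 1 lower past the threshold, and Il18 at 0.72 (SE 0.15, adjusted p = 0.0125) the 1 higher (1.25% together, against 1.06% of all genes).

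Genes of cholesterol synthesis all lay on one side. All 18 measured enzymes lay above 0, with a median of 0.29 against -0.02 over all genes, and 4 passed (22.2%, against 0.682% of all genes). Idi1 (isopentenyl diphosphate isomerase) was 10.00, 10.15 and 10.19 in the control cells and 10.84, 10.77 and 10.73 in the sh-PIP4K2B cells, a difference of 0.67 (SE 0.15, adjusted p = 0.0188). Lss (lanosterol synthase) was 9.56, 9.58 and 9.67 in the control cells and 10.19, 10.28 and 10.10 in the sh-PIP4K2B cells, a difference of 0.59 (SE 0.09, adjusted p = 7.52e-04). The others, Msmo1 (a sterol oxidase) and Hmgcs1 (HMG-CoA synthase), were apart between the groups as well. Msmo1 stood at 0.54 (SE 0.11, adjusted p = 0.00627) and Hmgcs1 at 0.49 (SE 0.07, adjusted p = 2.02e-04). Sqle and Fdft1, under the fold limit, stood at 0.34 (SE 0.08) and 0.32 (SE 0.06). The median signal of the 18 was 10.21, 10.24 and 10.31 on the control arrays and 10.61, 10.62 and 10.61 on the depleted arrays. These are bright genes, in a range of signal where the median over all genes was above 0 too, but the median after subtraction of the median of each gene's signal group was still 0.25. None of the 4 calls held with the array medians as a covariate, 2 held with arrays centred within signal groups (Idi1 and Lss), and Idi1 passed in 3 and Hmgcs1 in 4 of the 6 fits that left out 1 array. The regulators did not follow, with Srebf2 at 0.11 (SE 0.11) and Insig1 at 0.07 (SE 0.09), and none of 21 genes of sterol regulation and fatty acid synthesis passed in limma (3 at an unadjusted p under 0.05, or 14.3% against 27.8% of all genes).

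Antioxidant genes driven by NRF2 mostly lay above 0. Of 15 measured, 14 lay above 0 (93.3%, against 44.7% of all genes) and 2 passed (13.3%, against 0.682%). In the ninth signal group, which holds their median signal of 11.13, the share above 0 was 71.4%. Their median change was 0.18, which became 0.14 after subtraction of the signal-group medians. Nqo1 (a quinone reductase) was 8.43, 8.37 and 8.55 in the control cells and 9.13, 9.26 and 9.19 in the sh-PIP4K2B cells, a difference of 0.74 (SE 0.13, adjusted p = 0.00336) and Hmox1 (heme oxygenase) was 9.53, 9.45 and 9.53 in the control cells and 10.00, 10.09 and 10.09 in the sh-PIP4K2B cells, a difference of 0.56 (SE 0.06, adjusted p = 2.70e-05). Gclm, Gclc and Txnrd1, of glutathione and thioredoxin metabolism, stood at 0.33 (SE 0.07), 0.28 (SE 0.06) and 0.29 (SE 0.06), past the adjusted p but under 1.4-fold. Mgst2, a microsomal glutathione transferase, stood at 0.95 (SE 0.16, adjusted p = 0.00182), and the aldo-keto reductase Akr1c12 at 0.55 (SE 0.08).

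Genes of the cell cycle lay above 0 by small amounts. All 39 genes of the G2 and M phases and 40 of 43 genes of DNA replication lay above 0, with medians of 0.28 and 0.15. Of all genes 44.7% lay above 0, but in the seventh to ninth signal groups, where bright genes lie, the share was 71.0% to 72.5%. After subtraction of the signal-group medians the medians of the lists were 0.22 and 0.09, and with the array medians as a covariate 0.16 and 0.11. From each list 1 passed (2.56% and 2.33%, against 1.06% of all genes), the kinesin Kif4 at 0.52 (SE 0.10, adjusted p = 0.00751) and cyclin E2 (Ccne2) at 0.61 (SE 0.17, adjusted p = 0.0419). The median signal of the G2 and M genes was 9.73, 9.84 and 9.71 on the control arrays and 9.89, 10.01 and 9.83 on the depleted arrays, so that these medians overlapped. Other genes past the threshold known from mitosis, centrioles or DNA repair, which were picked out after their values had been seen, were Rad54b at 0.76 (SE 0.08, adjusted p = 1.96e-05), Stil at 0.58 (SE 0.11), Sass6 at 0.50 (SE 0.11), Cenpi at 0.49 (SE 0.14), Kntc1 at 0.54 (SE 0.12), Fbxo5 at 0.56 (SE 0.12), Fancb at 0.55 (SE 0.13), Brip1 at 0.54 (SE 0.10) and E2f2 at 0.49 (SE 0.07). Among these picked genes Rad54b alone passed under all 6 normalization alternatives. Only Rad54b and Stil passed with any 1 of the 6 arrays left out. No call of Kif4 or Ccne2 remained with the array medians as a covariate, and Ccne2 passed in none of the fits that left out 1 array. Of 31 clustered histone genes H3c15 and H2ac4 were higher (6.45%, against 0.682% of all genes), at 0.83 (SE 0.17) and 0.59 (SE 0.12), copies whose probes can share transcripts.

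Of 20 hypoxia-inducible genes 17 lay above 0 (85%, against 44.7% of all genes). In the eighth signal group, which holds their median signal of 9.90, the share was 71.0%. Their median change was 0.18, which became 0.14 after subtraction of the signal-group medians. Bnip3, a mitophagy receptor, alone passed (5%, against 1.06% of all genes), at 0.52 (SE 0.12, adjusted p = 0.0155). The neuronal list held 2 genes that were higher (14.3%, against 0.682% of all genes) and none lower. Of 14 neuronal genes Stmn2, a stathmin that regulates microtubules in axons, was 8.98, 9.03 and 9.14 in the control cells and 9.90, 10.00 and 9.94 in the sh-PIP4K2B cells, a difference of 0.90 (SE 0.09, adjusted p = 7.97e-06), and Nefl, the light neurofilament, was 7.03, 7.13 and 7.23 in the control cells and 7.82, 8.27 and 7.95 in the sh-PIP4K2B cells, a difference of 0.89 (SE 0.10, adjusted p = 2.70e-05). The median of the list was -0.11, which turned to 0.03 with arrays centred within signal groups, and Nefm and Nefh stood at -0.34 (SE 0.10) and -0.35 (SE 0.11). Of 67 cadherins and protocadherins 5.97% passed, against 1.06% of all genes. Pcdhb9, Pcdhb12 and Pcdhb17 were higher (0.66, 0.59 and 0.51), close relatives that lie in 1 gene cluster, and Fat3 was lower (-0.51, with its 14 other transcript clusters between -0.39 and 0.10). None of these 4 calls held with the array medians as a covariate. Of 408 zinc finger genes 4 were higher, Zfp229, Zfp758, Zik1 and Zfp558, and Zkscan2 was lower (-0.49), together 1.23% against 1.06% of all genes. Of the 408, 267 lay above 0 (65.4%), against 44.7% of all genes and between 11.7% and 72.5% in the signal groups. Of the solute carriers, 3 of 373 were higher (Slc16a4, Slc22a23 and Slc35a5) and 2 lower, the noradrenaline transporter Slc6a2 at -0.72 (SE 0.13, adjusted p = 0.00311) and the glutamate transporter Slc1a3 at -0.54 (SE 0.10), together 1.34% against 1.06%. The transferrin receptor Tfrc, often taken as a reference gene, stood at 0.57 (SE 0.13, adjusted p = 0.0164).

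Large families that serve every cell did not move past the threshold. None of 83 subunits of oxidative phosphorylation, 60 cytosolic and 77 mitochondrial ribosomal proteins, 39 proteasome subunits or 156 splicing and RNA-binding factors passed in limma. At an unadjusted p under 0.05 there were 9, 2, 7, 7 and 33 in this order, which is 10.8%, 3.33%, 9.09%, 17.9% and 21.2% against 27.8% of all genes, and the median changes were 0.07, -0.03, 0.08, 0.05 and 0.08. None of 71 genes of TFIID and the core promoter passed either (11, or 15.5%, at an unadjusted p under 0.05, median 0.09), nor any of 50 PHD finger genes (8, or 16%, median 0.06). In all, 27 of the 82 lists held no gene past the threshold. Among families that are mostly silent in muscle, 3 of 1026 olfactory receptors passed (0.292%, against 1.06% of all genes). Olfr805 and Olfr1076 were higher and Olfr231 lower, and the median of the family was -0.03. Ion channels, dim as a family with a median signal of 6.85, had a median change of -0.16 over 213 genes, which became -0.04 with arrays centred within signal groups. Only 1 passed (0.469%, against 1.06% of all genes), the chloride channel Clcn3 at 0.66 (SE 0.11). Of 59 small nucleolar and spliceosomal RNA genes 2 were higher (3.39%, against 0.682% of all genes), Snord87 and Snord47, at 1.02 (SE 0.17) and 0.83 (SE 0.18). Of 302 microRNA genes 2 were lower (0.662%, against 0.376% of all genes), Mir218-2 and Mir181c, at -0.50 (SE 0.10) and -0.49 (SE 0.10). The 2 microRNA calls were lost with each array centred on its median.

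Depletion of PIP4K2B in etoposide-treated WT-TAF3 cells gave a second pair of groups, on other arrays, to set beside these changes. Those cells carried the same knockdowns but were given etoposide, a topoisomerase II inhibitor, at 10 µM for 7 hours without differentiation. An effect of the shRNA on other targets or of the lines cannot be told apart from that of PIP4K2B here either. There 173 genes (0.868% of those tested) passed, and 33 passed in both treatments, which is 15.6% of the 211 and 19.1% of the 173. Of the 33, 31 moved the same way and 2, Grem1 and Trdn, the opposite way. Among the 136 genes higher in differentiated cells 73 were also above 0 after etoposide, and among the 75 lower genes 48 were below 0. Over all genes the signs were alike for 32.9%, and the signal groups were shifted in opposite directions by the treatments.

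**Figure D5:**
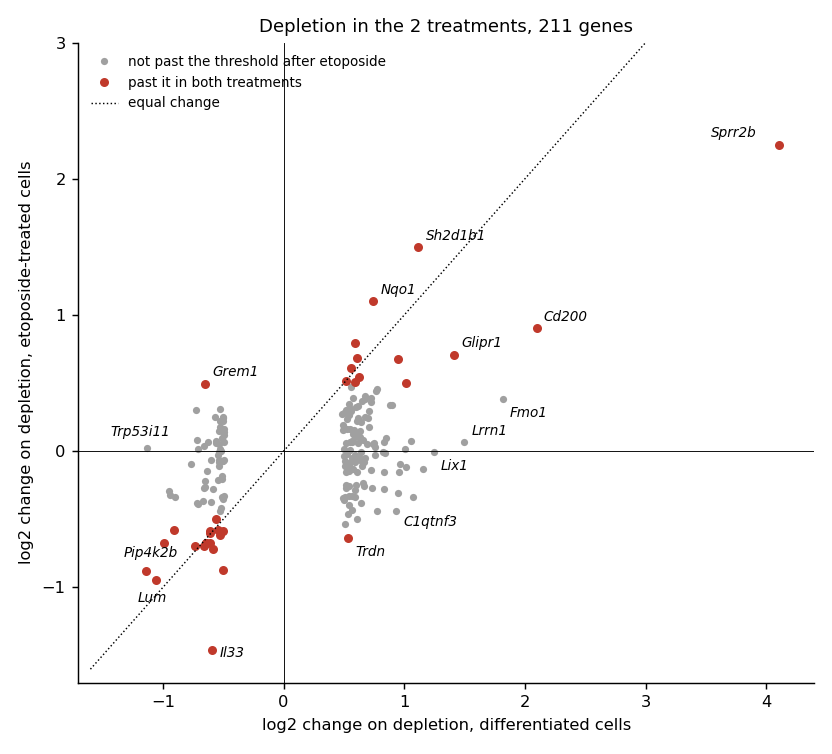
Log2 change on PIP4K2B depletion in differentiated cells (x axis) and in etoposide-treated cells (y axis) for the 211 genes past the threshold in differentiated cells, with the 33 that also passed after etoposide in red and the line of equal change dotted. Lum and Pip4k2b lie near that line, Lrrn1, Lix1 and Trp53i11 near 0 on the y axis, and Grem1 and Trdn on opposite sides of 0.

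For 26 of the 33 genes the difference between the treatments did not pass the threshold. Lum stood at -1.06 (SE 0.09) in differentiated and -0.95 (SE 0.09) in etoposide-treated cells, Cd34 at -0.64 (SE 0.07) and -0.67 (SE 0.07), Socs2 at -0.66 (SE 0.07) and -0.70 (SE 0.07), Mmp2 at -0.61 (SE 0.09) and -0.59 (SE 0.09), and Gfra2 at -0.73 (SE 0.10) and -0.70 (SE 0.10). Of those that rose, Hmox1 stood at 0.56 (SE 0.06) and 0.61 (SE 0.06), Nqo1 at 0.74 (SE 0.13) and 1.101 (SE 0.13), Pdk4 at 0.62 (SE 0.08) and 0.54 (SE 0.08), and Sh2d1b1 at 1.12 (SE 0.14) and 1.499 (SE 0.14). The difference passed for several of the largest changes. Fmo1 stood at 0.38 (SE 0.09, adjusted p = 0.0215) there, Lrrn1 at 0.07 (SE 0.08), Lix1 at -0.01 (SE 0.10), Pdlim3 at 0.02 (SE 0.07) and Trp53i11 at 0.02 (SE 0.08), and the differences from the differentiated cells were -1.43 (SE 0.13, adjusted p = 8.11e-06), -1.43 (SE 0.12, adjusted p = 5.78e-06), -1.25 (SE 0.14, adjusted p = 8.73e-05), -0.99 (SE 0.11, adjusted p = 4.38e-05) and 1.16 (SE 0.12, adjusted p = 2.29e-05), taken as etoposide-treated minus differentiated. Of the muscle genes, Myl1 and Casq2 stood at -0.31 (SE 0.13) and -0.27 (SE 0.08) after etoposide. Pdk4, as given above, rose there too, and the medians of the 8 muscle lists after etoposide ran from -0.10 to 0.05. In all, the difference passed for 107 of the 211 genes, against 4.02% of all genes, but these genes were chosen on the same 6 arrays that enter the difference, so this share is larger than for genes chosen otherwise.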

How the data were processed

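RNA (100 ng per array) had been hybridised to Affymetrix mouse gene arrays, 1 per sample. The deposited values are log2 signals that the authors made by RMA in Affymetrix Expression Console, whose version is not given in the sources used here. RMA sets all arrays to 1 distribution of probe values, although the deposited cluster values still differ in their medians. Of the 35556 transcript clusters 21789 had exactly 1 symbol, 1621 had several and 12146 were not named. For each gene the brightest cluster with 1 symbol was kept, which gave 19938 genes.

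The 6 group means were fitted to all 18 arrays with limma 3.58.1 in R 4.3.3 (12 residual and 6.06 prior degrees of freedom), and p-values were adjusted by the Benjamini-Hochberg method. A gene was past the threshold at an adjusted p under 0.05 and above 1.4-fold. Arrays give no read depth, and 3 per group limit the precision (median SE 0.09). The script was tested on simulated data. Figures were drawn by matplotlib 3.10.9 under Python 3.11.15, from tables built using pandas 2.3.3.

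The members, gene lists and tests were chosen with earlier results of these data known. Named were the PIP4K2 genes and Taf3, genes the study names for the arrays, the 30 largest rises and falls with separated groups (without clone names and small RNAs), up to 6 genes past the threshold per list, and relatives within a list. The mitotic and repair genes and other genes outside this rule were chosen after their values were seen. Alternatives covered the scaling, prior, arrays in the fit, filter, clusters, covariate, replicate block and left-out arrays. Promoters came from RefSeq (GRCm38.p6) and matched 15563 of the 19938 genes, 94 of the 136 higher and 47 of the 75 lower ones.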

Additional observations from a re-analysis of the deposited data

Results flagged for a closer look

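The effect of PIP4K2B depletion differed between etoposide-treated and differentiated cells, by limma's interaction contrast at the same threshold, for 107 of the 211 genes past it in differentiated cells. These genes were chosen on arrays that enter the contrast. Of the 33 genes past the threshold in both treatments 7 differed, and their differences are given as etoposide-treated minus differentiated, with limma's adjusted p.

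The rise of Sprr2b was smaller after etoposide by a difference of -1.86 (SE 0.19, adjusted p = 2.29e-05), at 2.25 against 4.11. For Cd200 the difference was -1.19 (SE 0.12, adjusted p = 2.29e-05), at 0.91 against 2.10. For Glipr1 it was -0.70 (SE 0.20, adjusted p = 0.0457) and for Pappa -0.51 (SE 0.13, adjusted p = 0.0348), with rises in both treatments. Il33 fell in both, and further after etoposide, by a difference of -0.87 (SE 0.14, adjusted p = 0.00224). Grem1 fell in differentiated cells and rose after etoposide, a difference of 1.14 (SE 0.11, adjusted p = 2.10e-05), with -0.65 and 0.50. Trdn, read here on its brightest cluster alone, went the other way round, a difference of -1.17 (SE 0.15, adjusted p = 3.31e-04), with 0.53 and -0.64. What set these differences was not tested, and the treatments also differ in growth, serum and time.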

How the results depend on the processing

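The counts moved with the scaling. The 211 genes (136 higher, 75 lower) became 349 with each array centred on its median (318 higher, 31 lower), 1225 with no fold limit (640 and 585) and 140 among genes brighter than the median (43 lower). Centring each array on its brighter clusters gave 158 lower genes, and the array medians as a covariate 58 higher ones. Leaving out 1 array gave 140 to 323 genes (88 to 188 higher, 49 to 145 lower), with 319 without depleted replicate 1, 323 without control replicate 3 and 140 without control replicate 1. The median change of all genes, -0.02, was 0.0602 among the brighter genes, 0.0728 and -0.0896 with arrays centred on their median and on their brighter clusters, -0.000605 with arrays centred within 10 signal groups (an alternative chosen after seeing the data) and -0.03 to -0.02 with 1 array left out. The causes were not tested.

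Of 122 named genes past the threshold 120 kept their call with the replicate block, which gave 207 genes (136 higher, 71 lower) and lost Zfp558 and Zkscan2. Same-numbered arrays did not deviate together (r of 0.21, -0.10 and -0.05), so the numbers were not taken as pairs. With the covariate 72 of the 122 kept their call, with treat against 1.1-fold 84.

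Signs turned only for named genes that were not past the threshold and lay near 0. Centred on the brighter clusters, Ckm was -0.0004963, Myod1 -0.06069, Ncam2 -0.06512, Pdgfa -0.007602 and Pip4k2c -0.02012. Within signal groups Myod1 was -0.02125 and Pdgfa -0.001435. With loess Pdgfa was -0.0001567 and Pip4k2c -0.003459. With the covariate Ncam2 was -0.07841 and Pip4k2c -0.06927, and with median centring Taf3 was 0.09487. With 1 array left out Myod1 ran from -0.03382 to 0.04107, Ncam2 from -0.1188 to 0.1194 and Taf3 from -0.05871 to 0.04164.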

Other observations

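Transcript clusters without a name in the annotation held further changes. Of 12146 such clusters, with a median signal of 6.41, 41 were higher and 33 lower past the same threshold in limma, against 131 and 64 of the 21789 clusters with 1 symbol. Of the 211 genes 13 had other clusters of their own, 62 in all, of which 59 moved in the direction of the brightest and 18 did so by more than 1.4-fold. Most of the 62 belonged to Myo18b (19), Trdn (18) and Fat3 (14), so these counts are not counts of genes. Clusters of the other sign were found for Sdhaf4 (-0.11, against 0.63 for the brightest) and Fat3 (up to 0.10, against -0.51).

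Of 23 targets of p53 17 lay above 0 (73.9%, against 44.7% of all genes). In the eighth signal group, which holds their median signal of 10.05, the share was 71.0%. Their median change was 0.20, which became 0.14 after subtraction of the signal-group medians. None was past the threshold in limma, and 17 were at an unadjusted p under 0.05 (73.9%, against 27.8% of all genes). The 37 Hox genes had a median of -0.10 and none past it, with 12 at an unadjusted p under 0.05 (32.4%, against the same 27.8%).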
